A study of Mus musculus with 19 samples.

Results

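Transcripts of 10 enzymes that make, pass on and use one-carbon units from threonine, glycine and serine were followed in mouse embryonic stem cells with and without Trim71 and Lin28a. The 10 genes, Tdh, Gcat, Gldc, Amt, Shmt1, Shmt2, Mthfd2, Phgdh, Psat1 and Psph, were chosen by symbol for their place in this route, without use of their values. Earlier results of these data were known when the choice was made, so it was not a blind one. All 10 were found among the 21685 genes of the deposited table, and all 10 were among the 14988 genes expressed highly enough to be tested. The largest differences were seen for Shmt2, Mthfd2 and Psat1, which were 1.49-fold, 1.39-fold and 1.32-fold higher in cells without Lin28a than in cells with it when Trim71 was intact.

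Mouse embryonic stem cells take up and break down threonine through threonine dehydrogenase (Tdh), and the glycine formed is split by the mitochondrial glycine cleavage system. The carbon released is carried by folate to purine, thymidine and methionine synthesis, and serine feeds the same folate pool through the serine hydroxymethyltransferases. Lin28a, found in pluripotent cells, binds precursors of the microRNA let-7 and keeps them from maturing. Trim71 is an RNA-binding ubiquitin ligase of early embryos whose transcript is itself a known let-7 target, and the series asked how it acts on let-7.

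The cells were male C57BL/6 embryonic stem cells of 4 genotypes, named by their Trim71 state and then their Lin28a state. Cells named WT-WT carried floxed alleles of both genes (Trimfl/fl - Lin28afl/fl, n = 4 libraries), and KO-WT cells lacked Trim71 (Trim-/- - Lin28afl/fl, n = 4). WT-KO cells lacked Lin28a (Trimfl/fl - Lin28a-/-, n = 5), and KO-KO cells lacked both (Trim-/- - Lin28a-/-, n = 5). Per the labels' protocols, loss of Trim71 was induced with 500 nM 4-OHT (4-hydroxytamoxifen, which activates an inducible Cre recombinase) for 2 days and cells were kept for at least 7 days more before harvest. That protocol is listed for libraries of all 4 genotypes, those with Trim71 intact included. How Lin28a was removed, and from which promoter the Cre was expressed, is not given in the sources used here. All cells were grown in serum with leukaemia inhibitory factor and sorted with magnetic beads for the stem cell antigen SSEA-1. A further KO-WT library was left out because its values were the average of the remaining KO-WT libraries. The labels name 4 clones: clones 1 and E3 had Lin28a and clones 1-4 and C1 lacked it, so Lin28a genotype and clone cannot be told apart. The labels also give each library a day, 6 in all, and none says that libraries came from separate cultures, so the p-values measure the spread between these samples, which may be technical.

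Values are log2 normalised expression, so a difference of 1 is a change of 1 doubling, and the depth of the libraries is unknown. A gene was called changed where its limma p-value, adjusted over all 14988 tested genes by the Benjamini-Hochberg method, was under 0.05. The targeted transcripts followed the labels: Trim71 was lower by a log2 difference of -1.31 in KO-WT than in WT-WT cells and of -1.38 in KO-KO than in WT-KO cells. Lin28a was lower by -1.65 in WT-KO than in WT-WT cells and by -1.56 in KO-KO than in KO-WT cells. The cells carried stem cell markers at high level, with a summed log2 level of 9 of 9 markers from 15.18 to 15.39 in the 8 libraries with Lin28a and from 15.50 to 15.70 in the 10 without it. Of 8 tested, 6 were called higher for Lin28a loss with Trim71 intact and 4 without Trim71, against 20.3% and 20.8% of all genes. Nanog rose by 0.86 and 0.97. Other markers of this list did not rise with Trim71 intact: Zfp42 had means of 9.32 in WT-WT and 9.29 in WT-KO, and Tdgf1 of 12.42 and 12.41. Fut4, low in every group, was at 3.27 and 2.88. Sox2 was higher in WT-KO (mean 11.70) than in WT-WT (11.49), but not in KO-KO (11.55) against KO-WT (11.62). Markers of other cell types also moved with Lin28a. The summed level of 9 of 9 trophectoderm markers was 11.83 to 12.34 with Lin28a and 8.14 to 8.85 without it, with Krt8 at a mean of 10.96 in WT-WT and 6.74 in WT-KO, while Elf5 was near the bottom of the scale in every group (means 0.80 to 0.95). Eomes, also of that list, was not lower (means 5.30 in WT-WT, 5.56 in KO-WT, 5.43 in WT-KO and 5.56 in KO-KO). Primitive endoderm markers (8 of 8) summed to 12.60 to 12.80 with Lin28a and 11.41 to 11.72 without. The 4 of 8 fibroblast markers in the table summed to 6.92 to 7.18 and 6.45 to 6.81, and 5 of 6 neural markers to 8.61 to 9.15 and 9.19 to 9.57. Against their sums, the mean of Thy1, a fibroblast marker, was 5.18 in WT-WT and 5.32 in WT-KO, and that of the neural marker Nes was 7.36 and 6.88. The part of these marker changes in the enzyme differences by Lin28a state given below was not tested. In bulk libraries, fewer cells of a type and less RNA per cell cannot be told apart.

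The let-7 seed is shown first, since Lin28a acts on let-7 and let-7 acts on transcripts that pair with its seed. The mature let-7a of RefSeq (GRCm38.p6), with its seed in capitals, is shared at the seed by 8 mature let-7 names.
let-7a: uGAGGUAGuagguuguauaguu
The 3' UTRs of the 10 enzymes, taken from 1 transcript per gene of GENCODE M21 on GRCm38, were searched for the letters that pair with it. The 7-letter match CTACCTC was in 0 of 10 members, against 4.42% of 11190 genes whose 3' UTR length lay within the range of the members. Shorter matches are not reported here, and no match says only that these 7 letters are not in the 3' UTRs searched.

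Of the 10 genes, 9 had a promoter of 300 bases (250 before to 50 after the start site) in the RefSeq table of build GRCm38.p6; Tdh was not among them. The promoters of Mthfd2 and Psat1 are printed 5' to 3' along the gene, because both were among the 3 most changed members and each held 3 copies of 1 motif. The Mthfd2 promoter is chr6:83317555-83317854 on the minus strand, and capitals mark CCAAT on either strand (ATTGG where it is read on the other strand).
Mthfd2 promoter: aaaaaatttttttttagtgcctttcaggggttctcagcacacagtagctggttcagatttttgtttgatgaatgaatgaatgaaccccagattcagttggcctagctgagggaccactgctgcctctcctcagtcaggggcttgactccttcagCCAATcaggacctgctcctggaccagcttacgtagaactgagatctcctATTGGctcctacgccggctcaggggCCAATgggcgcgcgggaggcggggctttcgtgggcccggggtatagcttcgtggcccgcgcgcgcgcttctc
The Psat1 promoter is chr19:15925010-15925309 on the minus strand, the first of 2 entries for this gene, with capitals as above.
Psat1 promoter: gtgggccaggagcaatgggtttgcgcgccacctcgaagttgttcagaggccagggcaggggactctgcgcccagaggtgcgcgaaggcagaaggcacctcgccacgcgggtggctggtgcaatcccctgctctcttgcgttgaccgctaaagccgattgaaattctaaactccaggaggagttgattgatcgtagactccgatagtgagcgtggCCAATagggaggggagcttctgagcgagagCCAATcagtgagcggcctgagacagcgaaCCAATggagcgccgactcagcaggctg
CCAAT began 96, 47 and 22 bases upstream of the Mthfd2 start, and 36 and 6 bases upstream and 23 downstream of the Psat1 start. It was in 7 of the 9 members (Gldc, Amt, Shmt1, Mthfd2, Phgdh, Psat1 and Psph) against 37.4% of 32851 promoters. Matches are given for 7 motifs on both strands, and none of the others of these 7 was in the 2 windows printed. A further motif was searched and is not reported here, so these 7 are not the whole search. The E-box CACGTG was in Gcat alone (7.15% of promoters), and the core of the C/EBP-ATF response element, TGATGNAA, was in 0 of the 9 (3.97%). The GC box GGGCGG was in 6 members (35.7%) and the ETS motif GGAAGTG in 2, Phgdh and Psat1 (11.0%), for Psat1 both in its other entry. The CRE TGACGTCA (1.79%) and the E2F motif TTTCGCGC (0.323%) were in 0. These are letters in a window and say nothing of which factor was bound.

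Loss of Lin28a went with higher transcripts for most of the route. When Trim71 was intact (WT-KO compared with WT-WT), 9 of the 10 genes were called, 8 higher and 1 lower, where 42.4% of all tested genes were called, 20.3% higher and 22.0% lower. The groups did not overlap for 8 genes that were higher and 1 that was lower, against 20.1% and 20.7% of all genes. For the 1 that was lower, Amt, they were barely apart. The median log2 difference of the 10 was 0.26, and that of all tested genes was -0.0077. In cells without Trim71 (KO-KO against KO-WT), 7 of the 10 were called, 6 higher and 1 lower, where 42.8% of all genes were called, 20.8% higher and 22.0% lower. The groups did not overlap for 4 members that were higher and 1 that was lower, against 19.8% and 20.8% of all genes. The median of the 10 was 0.13, and that of all tested genes was -0.00082. The median absolute difference there was 0.143 for the 10 and 0.155 for all tested genes. With Trim71 intact it was 0.259 and 0.155. These comparisons, the loss of both genes and the Trim71 comparisons share groups of libraries, so their values stand side by side and are not independent. Calls by Lin28a state were common among all genes, so the sizes of the differences are given for each member.

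**Figure D1:**
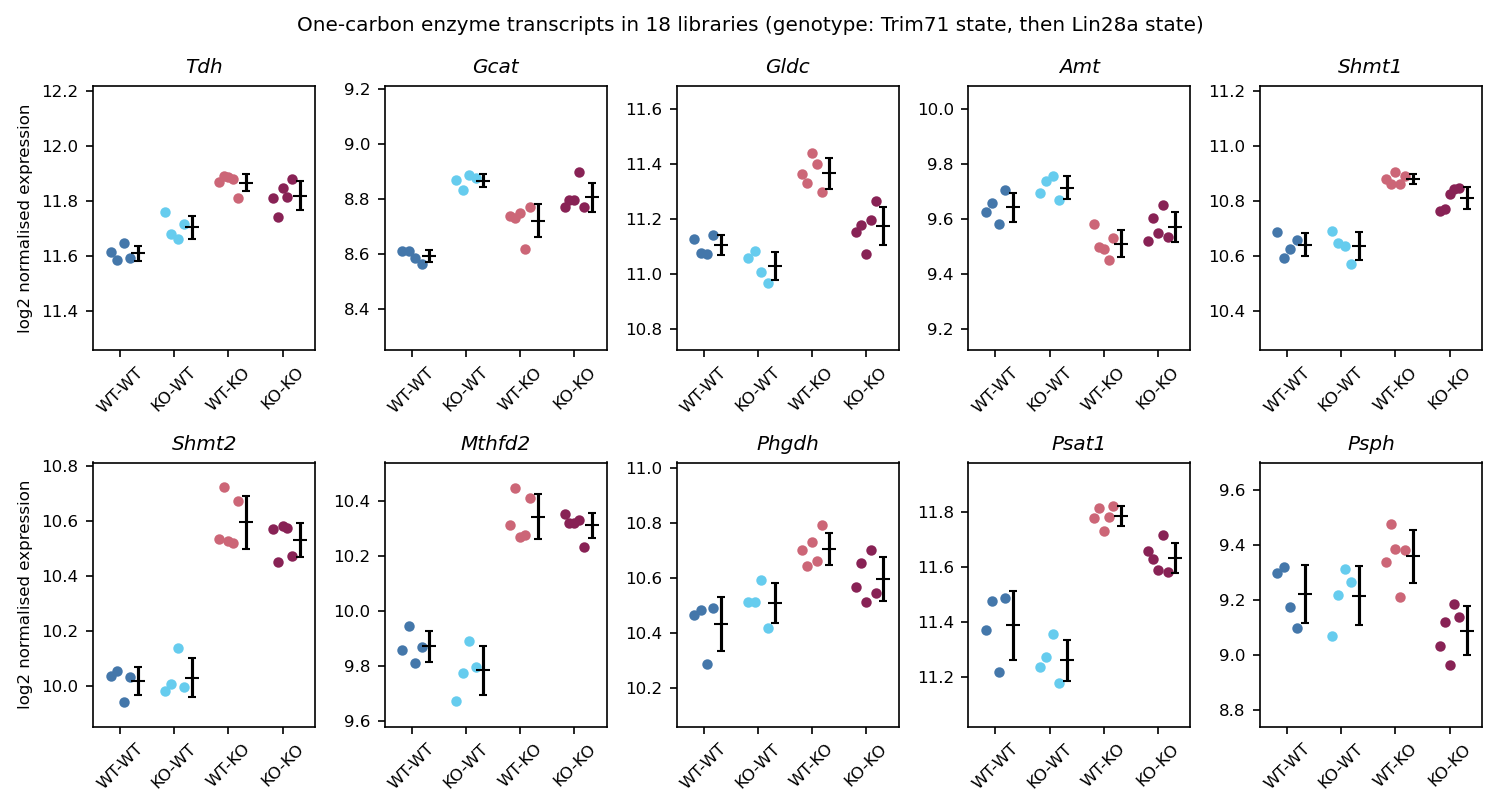
Log2 normalised expression (vertical axis, the same span in each panel) of the 10 enzymes in 18 libraries by genotype. Points are libraries and bars are the mean and SD (n = 4, 4, 5 and 5). For Shmt2, Mthfd2 and Psat1 every library without Lin28a lies above every library with it.

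Shmt2 makes glycine and a folate-bound one-carbon unit from serine in mitochondria. Its log2 levels were 10.04, 10.06, 9.94 and 10.04 in WT-WT libraries and 9.983, 10.009, 10.138 and 9.997 in KO-WT libraries. Without Lin28a they were 10.54, 10.72, 10.53, 10.52 and 10.67 in WT-KO and 10.57, 10.45, 10.58, 10.58 and 10.47 in KO-KO libraries. All 10 libraries without Lin28a were above all 8 with it, whichever Trim71 state they had. The log2 difference for Lin28a loss was 0.58 ± 0.056 (SE) with Trim71 intact (limma adjusted p = 7.73e-07) and 0.50 ± 0.056 without Trim71 (adjusted p = 3.49e-06), higher in 4 of 4 same-day pairs each time. Each set of clones sets 1 clone with Lin28a against 1 without it, so clone and Lin28a state stay joined in both sets. In clones E3 and C1 the difference was 0.59 with Trim71 intact and 0.50 without it. In clones 1 and 1-4 it was 0.57 and 0.53, the last resting on 1 KO-WT library.

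Mthfd2 is the mitochondrial dehydrogenase and cyclohydrolase that takes the folate unit made by Shmt2 further towards formate. Its levels were 9.86, 9.94, 9.81 and 9.87 in WT-WT and 9.67, 9.78, 9.89 and 9.80 in KO-WT libraries. They were 10.31, 10.45, 10.27, 10.28 and 10.41 in WT-KO and 10.35, 10.32, 10.32, 10.33 and 10.23 in KO-KO libraries, again with no overlap between Lin28a states. Lin28a loss raised the log2 level by 0.47 ± 0.054 with Trim71 intact (limma adjusted p = 4.76e-06), and in Trim71-null cells by 0.53 ± 0.054 (adjusted p = 1.50e-06), in 4 of 4 pairs each time. In clones E3 and C1 the values were 0.45 and 0.54, and in clones 1 and 1-4 they were 0.50 and 0.49. Across the 18 libraries Shmt2 and Mthfd2 gave a Pearson r of 0.98, and of 0.86 after the genotype means had been subtracted. The libraries form clusters by Lin28a state and share their day and clone, so these r are descriptions.

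Shmt1 is the cytosolic counterpart of Shmt2. Its levels ran from 10.59 to 10.69 in WT-WT and from 10.57 to 10.69 in KO-WT libraries, and from 10.86 to 10.90 in WT-KO and 10.76 to 10.85 in KO-KO libraries. It was higher without Lin28a by 0.24 ± 0.039 (limma adjusted p = 1.41e-04) and, in Trim71-null cells, by 0.17 ± 0.039 (adjusted p = 0.00202), with 4 of 4 pairs higher and no overlap in either case. In clones E3 and C1 alone the Trim71-null value was 0.15 and was not called (adjusted p = 0.0705). The log2 level of Shmt2 minus that of Shmt1 was between -0.68 and -0.53 in WT-WT libraries and between -0.71 and -0.50 in KO-WT libraries. It was between -0.38 and -0.14 in WT-KO and between -0.37 and -0.19 in KO-KO libraries. Every library without Lin28a thus had a higher ratio of the mitochondrial to the cytosolic transcript than every library with it. Whether the values are scaled by transcript length is not known, so only the change is read, and that change was not tested.

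**Figure D2:**
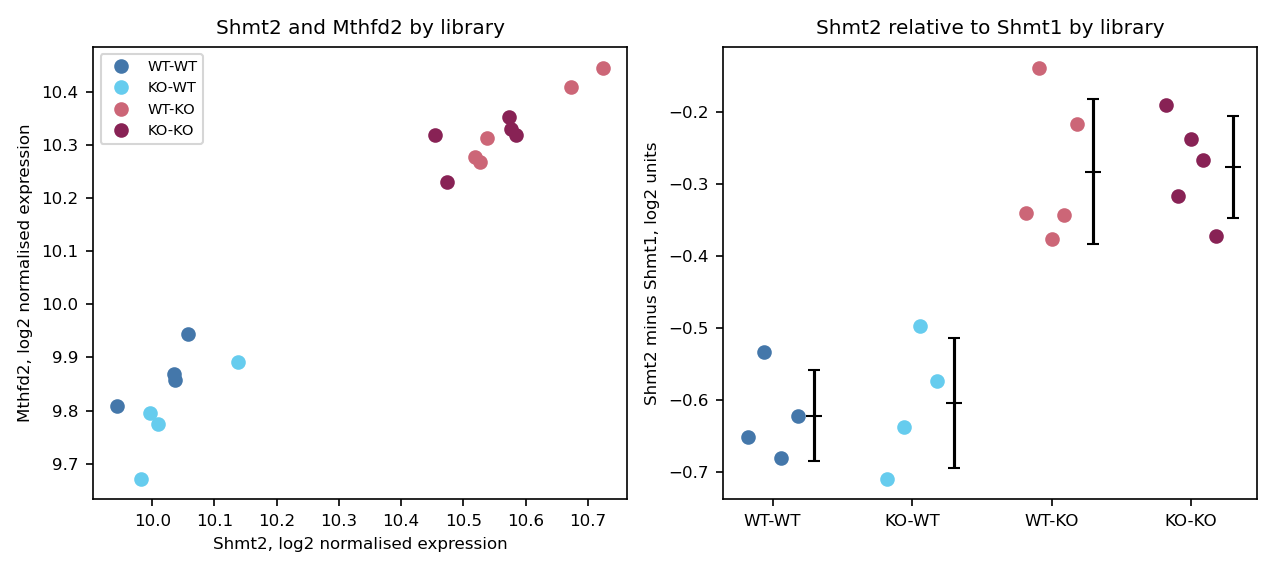
Left, log2 normalised expression of Mthfd2 against Shmt2 in 18 libraries, coloured by genotype. Right, the log2 level of Shmt2 minus that of Shmt1 by library, with the mean and SD of each genotype; libraries without Lin28a form the upper cluster in both panels.

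Serine itself is made from a glycolytic intermediate by Phgdh, Psat1 and Psph, in that order. Psat1, the aminotransferase, was at 11.37, 11.48, 11.22 and 11.49 in WT-WT and 11.24, 11.28, 11.36 and 11.18 in KO-WT libraries. It was at 11.78, 11.82, 11.73, 11.78 and 11.82 in WT-KO and 11.66, 11.63, 11.59, 11.72 and 11.58 in KO-KO libraries. All libraries without Lin28a were above all with it. The log2 difference was 0.40 ± 0.057 with Trim71 intact (limma adjusted p = 4.43e-05) and 0.37 ± 0.057 without Trim71 (adjusted p = 7.88e-05), in 4 of 4 pairs each time and called in both sets of clones.

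Phgdh, the first enzyme of serine synthesis, was at 10.47, 10.49, 10.29 and 10.49 in WT-WT libraries and at 10.70, 10.64, 10.73, 10.66 and 10.79 in WT-KO libraries. It rose by 0.27 ± 0.058 (limma adjusted p = 0.00126) with Lin28a loss while Trim71 was intact. In KO-WT libraries it was at 10.51, 10.51, 10.59 and 10.42 and in KO-KO at 10.57, 10.66, 10.51, 10.70 and 10.54, which overlap. That difference was 0.088 ± 0.058 and was not called (adjusted p = 0.232). With the trend of each library with transcript GC content and length removed, it was 0.15 and was called (adjusted p = 0.00652). Psph, the phosphatase of the last step, did not pass the test for Lin28a loss in either Trim71 state: 0.14 ± 0.071 with Trim71 intact (adjusted p = 0.130) and -0.13 ± 0.071 without it (adjusted p = 0.157). It was called in the first case without WT-KO replicate 4 (adjusted p = 0.0376) and in the second without KO-WT replicate 1 (0.0380). The 3 enzymes of 1 short pathway therefore gave different values for the same contrast, with Psat1 called in both Trim71 states, Phgdh in 1 and Psph in 0; differences between the genes were not tested.

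Tdh starts threonine breakdown in mitochondria and is known for its high level in mouse embryonic stem cells. Its levels were 11.62, 11.59, 11.65 and 11.59 in WT-WT and 11.76, 11.68, 11.66 and 11.72 in KO-WT libraries. They were 11.87, 11.89, 11.89, 11.88 and 11.81 in WT-KO and 11.81, 11.74, 11.85, 11.81 and 11.88 in KO-KO libraries. WT-WT was the lowest group, with no overlap with any other. Lin28a loss raised it by 0.26 ± 0.040 with Trim71 intact (limma adjusted p = 8.68e-05, 4 of 4 pairs), in both sets of clones. In Trim71-null cells the difference was 0.11 ± 0.040 (adjusted p = 0.0276, 3 of 4 pairs), the groups overlapped, and the call was lost in both sets of clones (adjusted p = 0.256 in E3 and C1, 0.155 in 1 and 1-4). It was also lost without KO-WT replicate 2 or 3 or KO-KO replicate 3 or 5.

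Gcat turns the product of Tdh into glycine and acetyl-CoA. Its levels were 8.61, 8.61, 8.59 and 8.56 in WT-WT and 8.87, 8.83, 8.89 and 8.88 in KO-WT libraries. They were 8.74, 8.73, 8.75, 8.62 and 8.77 in WT-KO and 8.77, 8.79, 8.79, 8.90 and 8.77 in KO-KO libraries. Gcat was the 1 member called higher with Trim71 loss: in cells with Lin28a it was higher by 0.27 ± 0.049 (limma adjusted p = 0.00399), in 3 of 3 pairs and with no overlap. It was 1 of 10 members called there, where 11.2% of all genes were called and 4.74% called higher. The groups did not overlap for Gcat and Tdh, both higher, against 13.0% of all genes. Across 14724 genes, that contrast rose with transcript GC content, with a rank correlation of 0.52, and Gcat has a GC content of 56.7%. With the GC and length trend removed the Gcat difference was 0.18 and still called (adjusted p = 0.0192). It was 0.26 in clones E3 and C1 (adjusted p = 0.163), 0.29 in clones 1 and 1-4 (adjusted p = 0.0763) and was not called with only the libraries of the groups compared. In Lin28a-null cells Trim71 loss gave 0.084 ± 0.042, not called (adjusted p = 0.246). Lin28a loss with Trim71 intact gave 0.13 ± 0.046 (adjusted p = 0.0322); that call was lost when any of 7 of the 18 libraries was left out, each of the 4 WT-WT libraries and WT-KO replicates 1, 3 and 5, and with the GC and length trend removed (0.083, adjusted p = 0.0976). It was not called in either set of clones alone (adjusted p = 0.430 in E3 and C1 and 0.0514 in 1 and 1-4) or on the 3 days with all genotypes (0.141).

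Gldc and Amt are parts of the glycine cleavage system, the decarboxylase that opens the reaction and the aminomethyltransferase that hands the carbon to folate. Gldc was at 11.13, 11.08, 11.07 and 11.14 in WT-WT and 11.36, 11.33, 11.44, 11.40 and 11.30 in WT-KO libraries, with no overlap. The difference was 0.26 ± 0.046 (limma adjusted p = 3.23e-04), called in both sets of clones. In KO-WT it was at 11.06, 11.08, 11.01 and 10.97 and in KO-KO at 11.15, 11.18, 11.07, 11.20 and 11.26, which overlap. That difference was 0.14 ± 0.046 (adjusted p = 0.0198, 3 of 4 pairs), and it was not called in clones E3 and C1 (0.10, adjusted p = 0.271). It was also lost without KO-WT replicate 3 or 4 or KO-KO replicate 5.

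Amt was the 1 member called lower without Lin28a. Its levels were 9.62, 9.66, 9.58 and 9.70 in WT-WT and 9.58, 9.50, 9.49, 9.45 and 9.53 in WT-KO libraries, and 9.69, 9.74, 9.75 and 9.67 in KO-WT and 9.52, 9.60, 9.55, 9.65 and 9.53 in KO-KO libraries. The log2 difference was -0.13 ± 0.045 with Trim71 intact (limma adjusted p = 0.0269) and -0.14 ± 0.045 without Trim71 (adjusted p = 0.0178), in 4 of 4 pairs and with no overlap each time. With Trim71 intact the groups were barely apart: the lowest WT-WT value was 9.5794 and the highest WT-KO value was 9.5787. That gap is far smaller than the SD within the groups (0.053 and 0.048). Neither was called within 1 set of clones (adjusted p = 0.142 to 0.222). Leaving out 1 of the 18 libraries at a time ended the 2 calls in 4 and 3 cases, those without WT-WT replicate 2 or 4 or WT-KO replicate 3 or 4, and those without KO-WT replicate 2 or 3 or KO-KO replicate 5. With libraries scaled to equal 75th percentiles the Trim71-intact difference was not called (adjusted p = 0.0826), and with the GC and length trend removed the Trim71-null one was not (0.0559). Across the 18 libraries Gldc and Amt gave a Pearson r of -0.75, and of 0.094 after the genotype means had been subtracted.

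**Figure D3:**
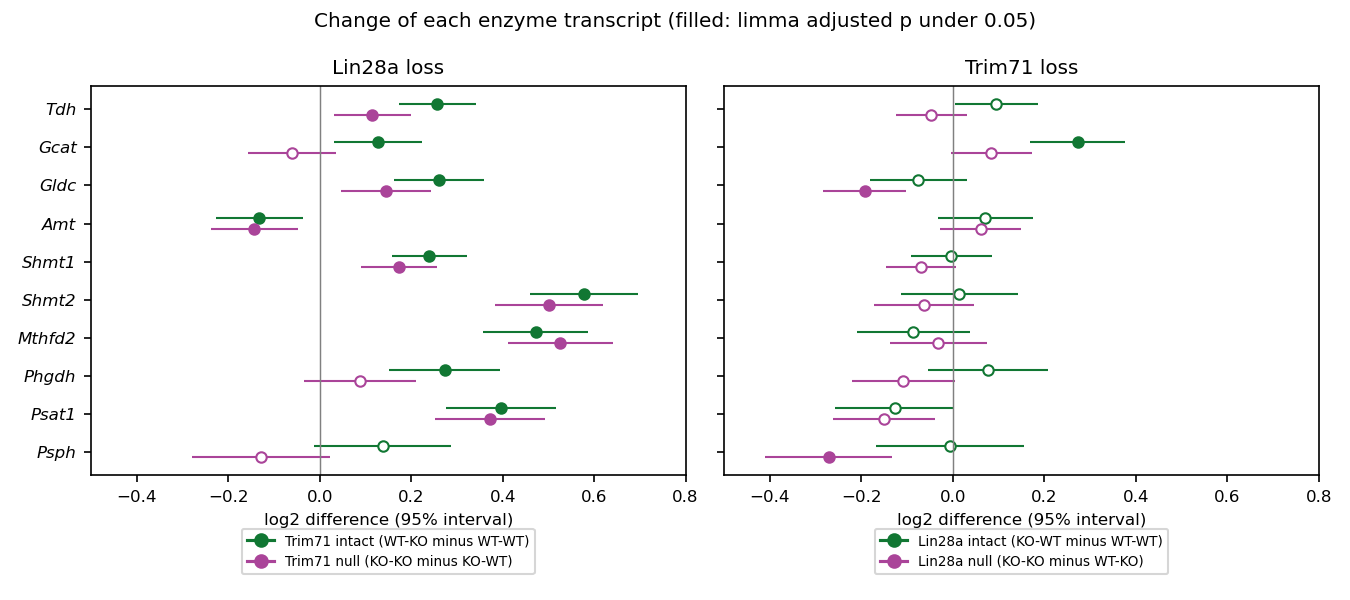
Log2 difference of each enzyme for Lin28a loss (left) and Trim71 loss (right), with 95% intervals, for cells in which the other gene was intact (green) or null (purple). Filled points were called at a limma adjusted p under 0.05: 9 and 7 of 10 on the left, 1 and 2 of 10 on the right.

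Few of these transcripts were called for Trim71 loss, and few of all genes were. In Lin28a-null cells the median absolute log2 difference was 0.077 for the 10 and 0.075 for all tested genes. With Lin28a intact it was 0.076 and 0.105. In Lin28a-null cells (KO-KO against WT-KO) 2 of the 10 were called, both lower, where 8.38% of all genes were called and 4.12% called lower. Psph fell by 0.27 ± 0.066 on the log2 scale (limma adjusted p = 0.0182), from 9.34, 9.48, 9.38, 9.21 and 9.38 in WT-KO to 9.03, 9.12, 8.96, 9.19 and 9.14 in KO-KO libraries, in 5 of 5 pairs with no overlap. Gldc fell by 0.19 ± 0.043 (adjusted p = 0.0117), also in 5 of 5 pairs with no overlap. Neither was called in 1 set of clones alone (Psph, adjusted p = 0.258 in E3 and C1 and 0.1000 in 1 and 1-4; Gldc, 0.105 and 0.247) or on the 3 days with all genotypes. The Psph call was also lost without WT-KO replicate 2 or 5 or KO-KO replicate 1 or 3. Psat1 and Shmt1 were lower in 5 of 5 pairs with no overlap but were not called (-0.15 ± 0.053, adjusted p = 0.0882, and -0.070 ± 0.036, adjusted p = 0.263). Psat1 was called without WT-WT replicate 3 (adjusted p = 0.0245), with the GC and length trend removed (0.0438) and without the day term (0.0253). The fit without the day term called 17.5% of all genes. It does not count the degrees of freedom used when day differences were removed, so its p-values are too small. Groups did not overlap for 4 members that were lower, against 6.55% of all genes. With Lin28a intact, the 95% interval for Trim71 loss ran from -0.11 to 0.14 for Shmt2 and from -0.21 to 0.038 for Mthfd2.

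Cells without both genes were compared with cells that had both (KO-KO against WT-WT). Of the 10, 7 were called, all higher, where 45.6% of all genes were called and 21.0% called higher. The same 7 showed no overlap between the groups, against 20.8% of all genes. The log2 differences were 0.51 for Shmt2, 0.44 for Mthfd2, 0.25 for Psat1, 0.21 for Gcat, 0.21 for Tdh, 0.17 for Shmt1 and 0.16 for Phgdh. The Phgdh call (limma adjusted p = 0.0282) was lost without WT-WT replicate 3, KO-KO replicate 2 or KO-KO replicate 4. Phgdh was also not called on the 3 days with all genotypes (0.117) or with only the libraries of the groups compared (0.115). Within clones E3 and C1, Tdh (0.0909), Gcat (0.0684) and Phgdh (0.0735) were not called, and within clones 1 and 1-4 Shmt1 (0.0516) and Phgdh (0.225) were not. Gldc (0.069), Amt (-0.071) and Psph (-0.13) were not called. The test of whether the effect of losing one gene depended on the other called 0 of the 10 in limma, where 0.02% of all genes were called. Of the 10, 4 had an unadjusted p under 0.05, as did 2256 of all 14988 tested genes. Those 4 were Psph (-0.27 ± 0.10), Gcat (-0.19 ± 0.065), Phgdh (-0.19 ± 0.082) and Tdh (-0.14 ± 0.056), with adjusted p between 0.239 and 0.314. Across 14724 genes the interaction fell with transcript GC content, with a rank correlation of -0.51. GC content was 57.2% for Phgdh, 56.7% for Gcat, 53.7% for Psph and 53.3% for Tdh. The part of that trend in these 4 values was not tested. Gcat and Phgdh were called for Lin28a loss with Trim71 intact and not without it, and for neither was that difference between states called.

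From low to high, the genotype means of Gldc, Shmt1, Mthfd2 and Psat1 were ordered KO-WT, WT-WT, KO-KO, WT-KO, and those of Tdh, Shmt2 and Phgdh WT-WT, KO-WT, KO-KO, WT-KO. The 2 orders differ only in KO-WT and WT-WT, and the difference between these neighbours was called for 0 of the 7 genes. WT-KO was the highest group for 8 of the 10, Psph included. Gcat was highest in KO-WT and lowest in WT-WT, and Amt was lowest in WT-KO. For Shmt2 and Mthfd2 the neighbours within a Lin28a state did not differ beyond their spread. The widest range of genotype means was 0.58 for Shmt2, followed by 0.56 for Mthfd2 and 0.52 for Psat1.

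The transcripts most like these 3 across the 18 libraries were taken by Pearson r among the other tested genes. For Shmt2 they were Prodh, which oxidises proline (r = 0.991), Esyt1, a membrane tether (0.989), and Pprc1, a transcriptional coactivator (0.989). For Mthfd2 they were Aldh18a1, the first enzyme of proline synthesis (0.992), Aars, the alanyl-tRNA synthetase (0.990), and Nupr1, a stress-induced nuclear protein (0.988). For Psat1 they included the tubulin Tubb3 (0.982) and Gars, the glycyl-tRNA synthetase (0.966). All 18 libraries share the split by Lin28a state. After the genotype means had been subtracted other genes led, Nefh for Shmt2 (0.975), Dhx37 for Mthfd2 (0.944) and Tubb4a for Psat1 (0.915).

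Other genes of the route were taken from lists of general knowledge. Of 15 tested folate enzymes and carriers, 8 were called for Lin28a loss in each Trim71 state, 6 higher and 2 lower, with a median difference of 0.029 and 0.087. For each list below, the shares of all genes called are those given above for the enzymes, 42.4% and 42.8%, so counts such as 8 of 15 folate genes or 4 of 14 methionine genes are read against these. Mthfd1l, the mitochondrial formate-producing enzyme that follows Mthfd2, rose by 0.56 ± 0.044 with Trim71 intact and 0.48 ± 0.044 without it (limma adjusted p = 8.18e-08 and 4.51e-07). Aldh1l2, a mitochondrial folate dehydrogenase, rose by 0.30 and 0.47, and the folate carrier Slc19a1 by 0.26 and 0.33. The call of Slc19a1 and Aldh1l2 with Trim71 intact was lost in the E3 and C1 clones (adjusted p = 0.0812 and 0.0840), and that of Aldh1l2 also in clones 1 and 1-4 (0.241) and on the 3 days with all genotypes (0.131). Without Trim71, both calls were lost in clones 1 and 1-4 alone (0.0765 and 0.0907). Mthfd1, the cytosolic enzyme of the same steps, was lower by -0.11 and -0.13 (adjusted p = 0.0306 and 0.0108); it lies outside the naming rule and was chosen after its values were seen. Of 8 further genes of glycine and threonine use, 3 were called, all lower, in each Trim71 state, among them Dmgdh, which demethylates dimethylglycine (-0.48 and -0.40), and Thnsl2, a threonine synthase-like protein (-0.38 and -0.45). Thnsl2 with Trim71 intact was not called in either set of clones (adjusted p = 0.105 in E3 and C1, 0.0772 in 1 and 1-4), and in Trim71-null cells neither Thnsl2 (0.291) nor Dmgdh (0.0604) was called in clones 1 and 1-4.

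Genes linked to amino acid stress and to the transcription factor Atf4 gave the highest median. Of 16 tested, 13 were called for Lin28a loss with Trim71 intact, 12 higher and 1 lower, with a median of 0.35, and 12 without Trim71, 11 higher and 1 lower, with a median of 0.35. Chac1, which degrades glutathione, rose by 0.97 ± 0.20 (limma adjusted p = 9.07e-04) and 1.19 ± 0.20 (adjusted p = 1.60e-04); in clones E3 and C1 alone the first was 0.86 and was not called (adjusted p = 0.0840). Nupr1 rose by 0.78 and 0.82 and Aldh18a1 by 0.76 and 0.78, and Atf3, a stress-induced transcription factor, fell by 0.64 and 0.61. Atf4 itself, chosen after its values were seen, rose by 0.44 ± 0.063 and 0.35 ± 0.063 (adjusted p = 3.91e-05 and 3.39e-04). The C/EBP-ATF core in the promoters of the enzymes was given above.

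Of 8 tested amino acid carriers, 4 were called higher and 0 lower in each Trim71 state. Slc1a5, which carries neutral amino acids such as glutamine, rose by 0.60 and 0.56, and Slc6a9, a glycine carrier, by 0.30 and 0.45. Slc1a4, a carrier of serine and alanine, rose by 0.30 and 0.42, and Slc38a1 by 0.20 and 0.30. With Trim71 intact, the calls of Slc6a9 and Slc38a1 were lost without WT-WT replicate 1 or 3 (Slc6a9, adjusted p = 0.0588 and 0.0536; Slc38a1, 0.0511 and 0.0591). They were lost as well without WT-WT replicate 4 for Slc38a1 (0.0711) and without WT-KO replicate 1 or 3 for Slc6a9 (0.0501 and 0.0529). Within clones E3 and C1, Slc6a9, Slc1a4 and Slc38a1 were not called there (adjusted p = 0.233, 0.0710 and 0.255).

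Users of one-carbon units gave mixed directions. Of 12 tested genes of purine synthesis, 9 were called with Trim71 intact, 6 higher and 3 lower, and 5 without Trim71, 3 higher and 2 lower. Pfas rose by 0.44 and 0.45 and Atic, which adds a folate carbon, by 0.28 and 0.26, while Prps2, which makes the ribose phosphate precursor, fell by 0.41 and 0.32. Of 14 tested genes of methionine metabolism, 4 were called with Trim71 intact, 1 higher and 3 lower, and 6 without Trim71, 2 higher and 4 lower. Bhmt, which remethylates homocysteine with betaine, fell by 1.01 ± 0.14 and 0.92 ± 0.14 (limma adjusted p = 3.01e-05 and 7.26e-05). Cbs, which draws homocysteine off, fell by 0.30 in both states. It was -0.29 in both states within clones E3 and C1, where it was not called (adjusted p = 0.116 and 0.0553), and -0.28 without Trim71 in clones 1 and 1-4, also not called (0.0532). Of 6 tested regulators, which include the 2 targeted genes, 4 were called with Trim71 intact, 1 higher and 3 lower, and 5 without Trim71, 2 higher and 3 lower. Beside Lin28a itself, Myc fell by 0.64 ± 0.14 and 0.67 ± 0.14 (adjusted p = 0.00188 and 0.00130) and its partner Max by 0.34 and 0.35. In clones E3 and C1 with Trim71 intact the Myc difference was -0.66 and was not called (adjusted p = 0.0591). The Trim71 transcript rose by 0.45 ± 0.11 with Trim71 intact (adjusted p = 0.00431). In Trim71-null cells the difference was 0.38 ± 0.11 (adjusted p = 0.0111). The first was not called in clones 1 and 1-4 (0.25, adjusted p = 0.0508), and the second was not in clones E3 and C1 (0.25, adjusted p = 0.141), with the GC and length trend removed (0.25, adjusted p = 0.0819) or without KO-WT replicate 1 (0.32, adjusted p = 0.0549).

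**Figure D4:**
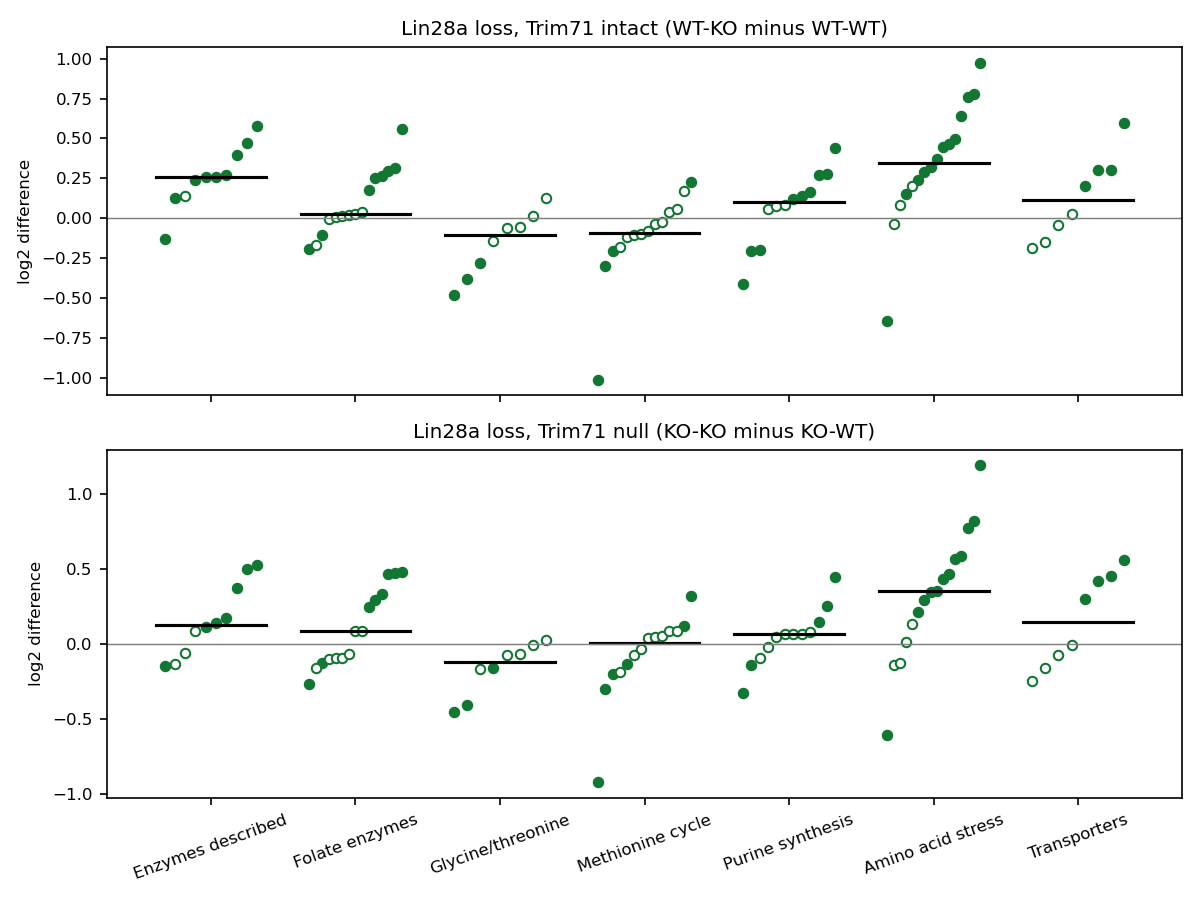
Log2 difference for Lin28a loss of the 10 enzymes and of the tested genes of 6 related lists, with Trim71 intact (top) and null (bottom). Each point is a gene, filled where called at a limma adjusted p under 0.05, and each bar is the list's median; the medians of the amino acid stress genes, 0.35 in both panels, are the highest.

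In the same lists, 3 genes beside Trim71 itself were called for Trim71 loss in both Lin28a states. Of all tested genes, 11.2% were called for Trim71 loss with Lin28a intact and 8.38% in Lin28a-null cells. The share of all genes called in both was not counted, so whether 3 is many or few is not known. Pipox, which oxidises sarcosine and pipecolate, rose by 0.37 ± 0.044 and 0.28 ± 0.038 (limma adjusted p = 1.81e-04 and 3.16e-04). It was not called with Lin28a intact in clones E3 and C1 (0.0992), in clones 1 and 1-4 (0.0529) or with only the groups compared (0.0698), nor with Lin28a null in clones 1 and 1-4 (0.0775). Prps1 fell by 0.19 and 0.27, and the first of these calls was lost in 10 of 18 fits that left out 1 library, those without any of the 4 WT-WT libraries, KO-WT replicate 3 or 4, WT-KO replicate 1 or 5, or KO-KO replicate 1 or 2. The first Prps1 call was also lost in 7 of 12 other settings. Among these were clones E3 and C1 (limma adjusted p = 0.396) and the GC and length trend removed (0.0935). The second was lost in clones E3 and C1 (0.102). Asns, the asparagine synthetase, fell by 0.24 with Lin28a intact and by 0.18 without it, against rises of 0.37 and 0.43 with Lin28a loss. The 2 Asns calls for Trim71 loss were lost in 3 and 8 of the 18 fits that left out 1 library. These left out WT-WT replicate 3 or 4 or KO-WT replicate 2, and WT-KO replicate 1, 3, 4 or 5 or KO-KO replicate 1, 3, 4 or 5. Both Asns calls were also lost in clones E3 and C1 (limma adjusted p = 0.287 with Lin28a intact and 0.379 without it). With only the groups compared they were lost too (0.114 and 0.0743). The call in Lin28a-null cells was lost without the eBayes trend as well (0.0584).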

How the data were processed

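mRNA was sequenced from 19 libraries of mouse embryonic stem cells. The deposited table holds log2 normalised expression, read as log2 from its values (-0.71 to 16.30, 4126 of them below 0). The submitters' processing notes name CASAVA 1.8, STAR and DESeq2 without their role; the annotation, build and normalisation are not given in the sources used here. Differences between days had been removed before deposit (largest day term of any gene 1.7e-08), and KO-WT replicate 5, whose values were the average of the remaining KO-WT libraries (largest gap 1.5e-08), was left out. The depth is unknown.

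Genes that reached log2 of 10 in 4 or more of the 18 libraries entered a limma 3.58.1 fit in R 4.3.3 (eBayes, trend). Genotype and day were its terms, leaving 10 residual degrees of freedom. The labels pair libraries by day, which is the block; whether same-day libraries deviate together could not be checked once day effects were gone. The fit was tested on simulated data. The members and lists were chosen with earlier results of these data known. Named beside the 10 members were genes of the lists called for loss of 1 gene in both states of the other, up to 4 a list by size of change, with exceptions stated. The E-box and the C/EBP-ATF core were planned motifs; the other 5 motifs and the let-7 match were added after results had been seen, as was a further motif that is not reported here. Some genes and a sequence that the rules would name are likewise not reported here. Alternatives were other scalings, filters and moderation, no day term, removal of GC and length trends, clone sets, days, groups and single libraries.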

Additional observations from a re-analysis of the deposited data

Results flagged for a closer look

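In 4 of 40 groups of libraries (10 genes in 4 genotypes), 1 library lay far from the rest of its group. Chance gives this in about 1 in 20 groups of independent values, which these are not, since day differences had been removed. Gcat was at 8.62 in WT-KO replicate 4, below the other WT-KO libraries, and at 8.90 in KO-KO replicate 4, above the other KO-KO libraries; both libraries are of the same day. Mthfd2 was at 10.23 in KO-KO replicate 5, below its group but above every library with Lin28a. Phgdh was at 10.29 in WT-WT replicate 3, the lowest Phgdh value of all libraries. Without that library the Phgdh call for loss of both genes was lost.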

How the results depend on the processing

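Of 10 enzymes, the 9 calls for Lin28a loss with Trim71 intact became 7 to 9 when 1 library was left out at a time, and the 7 in Trim71-null cells became 4 to 8. For loss of both genes, 7 became 6 to 7. For Trim71 loss, the 1 call with Lin28a intact became 1 to 2, and the 2 calls in Lin28a-null cells 1 to 3. For the interaction, 0 stayed 0. Without the day term (no replicate block) the 1 call for Trim71 loss with Lin28a intact became 2, where 28.1% of all genes were called, and the 0 of the interaction became 1, Gcat (limma adjusted p = 0.0404), of 4.49%. That fit has 14 residual degrees of freedom against 10, although day differences had already been removed, so its p-values are too small. In clones E3 and C1 only, the calls for Trim71 loss were 0 and 0 (0.0667% and 1.02% of all genes), those for Lin28a loss in Trim71-null cells 3 (24.0%) and those for loss of both 4 (17.8%). In clones 1 and 1-4 only, those for Trim71 loss were 0 and 0 (2.30% and 1.91%). With only the genotypes compared, Trim71 loss with Lin28a intact gave 0 (0.20%), and on the 3 days with all 4 genotypes Trim71 loss in Lin28a-null cells gave 0 (1.45%). With so few of all genes called, these 0s say nothing of the members. These fits hold fewer libraries, and clones 1 and 1-4 hold 1 KO-WT library, which is assumed to vary like the other groups. Shmt2, Mthfd2 and Psat1 kept their calls for Lin28a loss in both Trim71 states under all 12 other settings and all 18 single-library omissions. No called direction was reversed under any of these. Depth is unknown, so counting error could not be separated from other spread.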
